A study of Mus musculus with 6 samples.

Results

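The 33 genes described here encode enzymes and regulators of cholesterol and fatty acid synthesis. They were picked by gene symbol with earlier results of these data known, though the rule itself uses no measured value, and they comprised 7 genes of the mevalonate steps, 11 of the later sterol steps, 5 regulators, 4 of fatty acid synthesis and 6 of fatty acid elongation and desaturation. Each gene was represented by its probe set with the highest mean log2 signal over the 6 arrays. Of the 33 genes, 32 had a probe set naming that gene alone and 31 were detected in at least 1 group, out of 18193 genes on the array and 10993 genes detected. The 31 genes were called present on all 6 arrays.

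RNA came from epidermal basal cells of female C57BL/6 mice aged 10 weeks, sorted as live cells positive for α6-integrin, the receptor that anchors basal keratinocytes to the basement membrane. The 3 groups held 2 arrays each. They were ventral skin of virgin mice (virgin ventral), dorsal skin from pregnant mice, 16 days post coitum (16 dpc dorsal) and ventral skin at 16 dpc (16 dpc ventral). No other treatment or allele was given for any group, virgin dorsal skin was not analysed here, and the sort as described removes no other cell positive for α6-integrin. No label says that the replicates were separate animals, so the p-values reflect the spread between arrays, and that spread may be technical. The comparison of 16 dpc ventral with virgin ventral cells addresses pregnancy in the skin that stretches over the growing abdomen, and that with 16 dpc dorsal cells addresses the skin site within pregnancy.

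Cells make cholesterol from acetyl-CoA through mevalonate and squalene, and fatty acids from acetyl-CoA through malonyl-CoA, after which elongases lengthen the chains and desaturases add double bonds. The transcription factors SREBP1 and SREBP2 switch on these genes when membrane sterol falls, SREBP2 mainly those of cholesterol and SREBP1 mainly those of fatty acids, while the INSIG proteins hold the SREBPs back in the endoplasmic reticulum when sterol is plentiful. In the epidermis, cholesterol, free fatty acids and ceramides made by keratinocytes form the water barrier, and sebaceous glands make large amounts of lipid for secretion.

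The promoters of 2 of the genes are shown because SREBPs bind sterol regulatory elements together with the factor NF-Y, which binds CCAAT boxes. Of the 33 genes, 26 matched the RefSeq promoter table (GRCm38.p6) by symbol. The core of the sterol regulatory element was searched as TCACNCCAC, the CCAAT box as CCAAT and the E box, a further SREBP1 site, as CACGTG, each on both strands of the 300 bases from 250 before to 50 after the gene start. None of these motifs contains another. The sequences below are the 250 bases before the start, 5′ to 3′ on the strand of the gene, for Hmgcs1 (chr13:119690101-119690350, plus strand), which encodes the HMG-CoA synthase of the mevalonate route, and for Elovl5 (chr9:77917115-77917364, plus strand), an elongase whose signal is described further on. Capitals mark the sterol element core and the CCAAT boxes, which read ATTGG where they lie on the other strand.
Hmgcs1: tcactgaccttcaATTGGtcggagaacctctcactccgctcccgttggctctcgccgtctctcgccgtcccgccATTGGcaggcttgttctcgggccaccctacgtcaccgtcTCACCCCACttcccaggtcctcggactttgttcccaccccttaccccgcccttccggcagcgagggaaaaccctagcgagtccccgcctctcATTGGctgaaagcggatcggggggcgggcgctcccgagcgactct
Elovl5: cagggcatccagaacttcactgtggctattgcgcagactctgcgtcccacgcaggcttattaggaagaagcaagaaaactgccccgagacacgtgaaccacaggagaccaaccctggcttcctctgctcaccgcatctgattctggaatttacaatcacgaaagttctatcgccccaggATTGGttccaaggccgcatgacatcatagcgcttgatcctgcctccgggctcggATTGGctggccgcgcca
The Hmgcs1 stretch held 1 sterol element core, 137 bases before the start, and 3 CCAAT boxes. The Elovl5 stretch held 2 CCAAT boxes, and its E box is left in lower case. A CCAAT box was present in 22 of the 26 promoters (84.6%) against 41.1% of 27025 genes in the table, an E box in 5 of 26 (19.2%) against 8.09%, and the sterol element core in 1 of 26, that of Hmgcs1, against 1.44%. A match describes the letters of the window and not a site in use, and the absence of a match says only that these letters are not in it.

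Of the 31 detected genes, Scd2, a stearoyl-CoA desaturase, was the one that passed the test, lower in ventral cells of pregnant than of virgin mice. Differences were tested with limma on log2 signals of all 6 arrays, and p-values were adjusted by Benjamini-Hochberg across the 10993 genes, with 0.05 as the threshold. In 16 dpc ventral over virgin ventral cells 0 of the 31 genes rose and 1 fell, where 0.136% of all genes rose and 0.0637% fell. In 16 dpc ventral over 16 dpc dorsal cells 0 of 31 rose and 0 fell, where 0.0455% of all genes rose and 0.0364% fell, and in 16 dpc dorsal over virgin ventral cells 0 of 31 passed, where 0 genes did in all. At an unadjusted p under 0.05 the limma counts among the 31 were 1 higher and 1 lower in the first comparison (all genes 11.6% in either direction), 1 higher and 1 lower in the second (5.09%) and 0 higher and 3 lower in the third (7.27%). They were Elovl5 and Scd2 in the first and second comparisons, and Scd2, Elovl6 and Stard4 in the third, the latter 2 named after their values were seen. With so few genes passing at all, a count of 0 among 31 does not set them apart from the rest of the array.

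**Figure D1:**
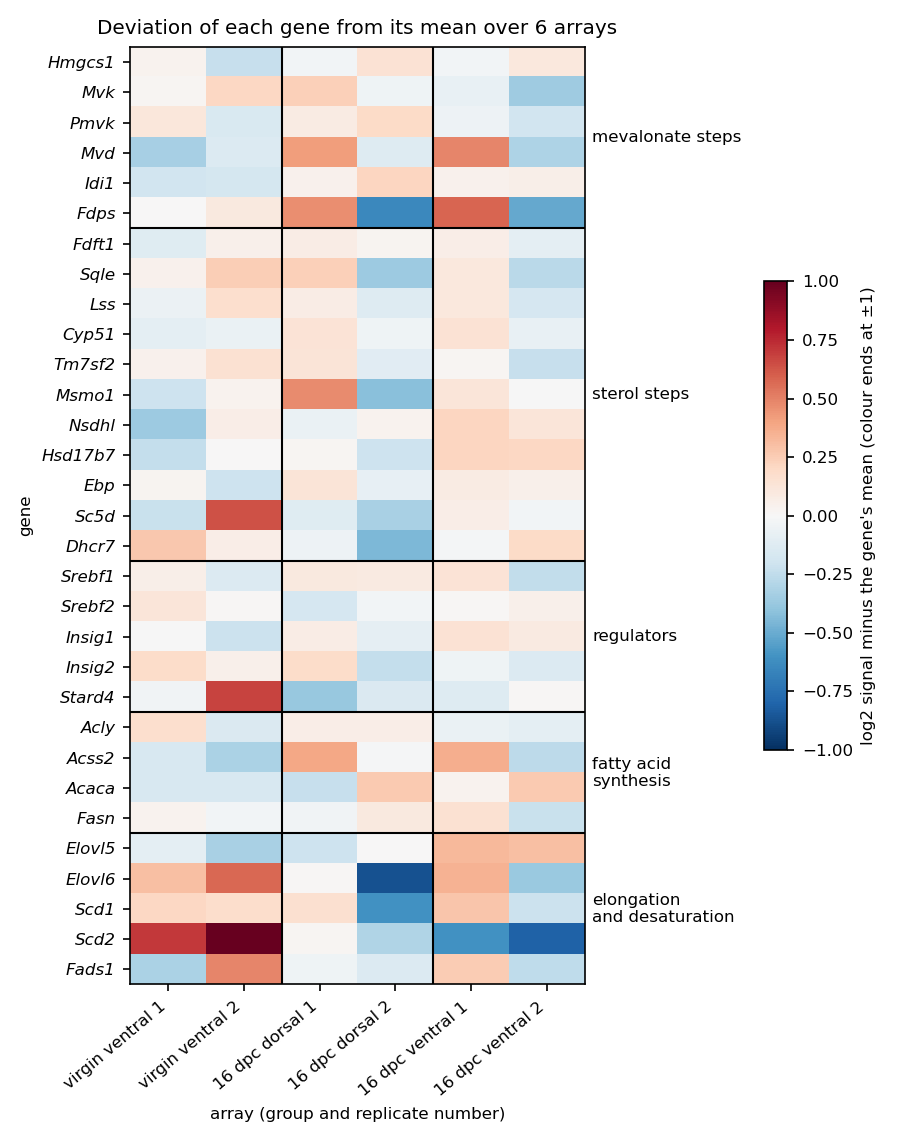
Each row is a gene, grouped by role, and each column an array. Colour gives the log2 signal minus that gene's mean over the 6 arrays, with the scale ending at ±1. Scd2 is red on both virgin arrays and blue on both 16 dpc ventral arrays, whereas Fdps, Elovl6 and Scd1 are bluest on the 16 dpc dorsal replicate 2 array.

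The intervals give the size of difference these arrays allow. The 95% interval of the limma log2 fold change lay within 2-fold in both directions for 28 of the 31 genes in 16 dpc ventral over virgin ventral cells (90.3%), against 72.3% of all genes. The exceptions were Mvd, Elovl6 and Scd2. In 16 dpc ventral over 16 dpc dorsal cells the same held for 28 of 31 (90.3%, all genes 77.0%), with Fdps, Elovl6 and Scd2 as the exceptions. In 16 dpc dorsal over virgin ventral cells it held for 24 of 31 (77.4%, all genes 75.1%). The 31 genes were called present on all 6 arrays, which was not required of all genes, and the fit lets the spread depend on level. These shares were not compared among genes of like signal, so they do not set the 31 genes apart. Median log2 fold changes over the 31 genes were -0.04, -0.00 and 0.03 in the 3 comparisons, beside 0.02, -0.03 and 0.07 over all genes. The arrays of the groups did not overlap for 7 genes higher and 4 lower in the first comparison (all genes 23.8% and 19.8%) and for 8 higher and 4 lower in the second (13.1% and 19.7%). All of these comparisons share groups and are not independent of each other.

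**Figure D2:**
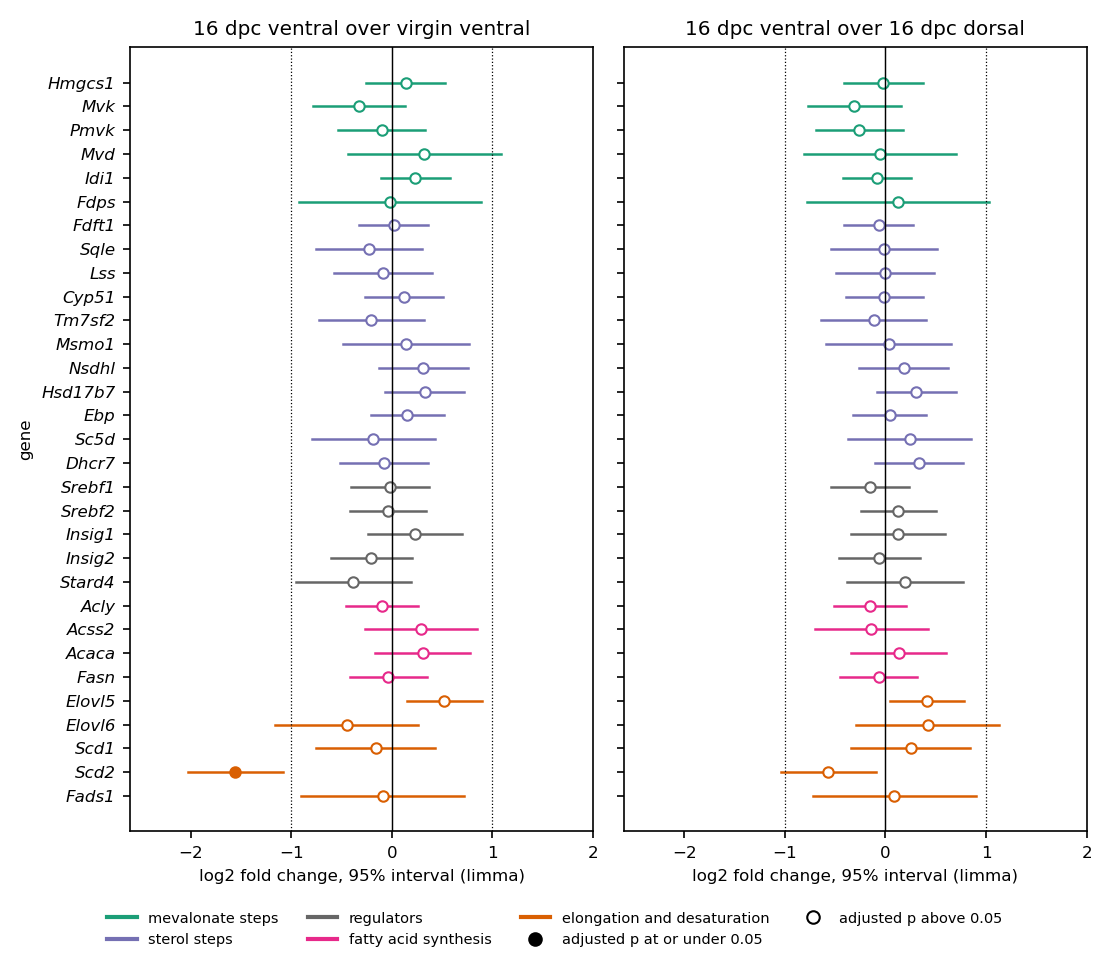
Points are log2 fold changes of each gene with 95% intervals from limma, coloured by role, for 16 dpc ventral over virgin ventral (left) and over 16 dpc dorsal (right). Dotted lines mark 2-fold in each direction, and the filled point, Scd2 at -1.56, is the one gene past an adjusted p of 0.05.

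The mevalonate steps turn acetyl-CoA into farnesyl pyrophosphate, and 6 of their 7 genes were measured. Their log2 fold changes ran from -0.33 to 0.32 in 16 dpc ventral over virgin ventral cells (median 0.06, 3 genes with a higher and 3 with a lower mean) and from -0.31 to 0.13 over 16 dpc dorsal cells (median -0.07), and 0 of 6 passed the limma test or an unadjusted p under 0.05 in either. Hmgcs1, which condenses acetyl-CoA and acetoacetyl-CoA, gave signals of 18977 and 15829 on the virgin ventral arrays, 18193 and 20529 on the 16 dpc dorsal arrays, and 18164 and 20003 on the 16 dpc ventral arrays. The 3 groups overlapped. The kinase gene Mvk gave 639 and 726 in virgin ventral, 740 and 611 in 16 dpc dorsal, and 599 and 492 in 16 dpc ventral cells, and both 16 dpc ventral arrays lay below the other 4. Idi1, the isomerase of isopentenyl pyrophosphate, gave 1495 and 1505 in virgin ventral, 1759 and 1980 in 16 dpc dorsal, and 1758 and 1772 in 16 dpc ventral cells. All 4 arrays of pregnant mice were above both virgin arrays for Idi1, without passing the test. Fdps, which makes farnesyl pyrophosphate, gave 1680 and 1794 in virgin ventral, 2306 and 1071 in 16 dpc dorsal, and 2500 and 1176 in 16 dpc ventral cells, so that the replicates of each 16 dpc group lay on either side of the virgin arrays. Mvd, the mevalonate pyrophosphate decarboxylase, gave 177 and 202 in virgin ventral, 298 and 203 in 16 dpc dorsal, and 312 and 180 in 16 dpc ventral cells. Both dorsal arrays of Mvd were above the virgin arrays, the second barely, and the second 16 dpc ventral array lay within the virgin range. The phosphomevalonate kinase gene Pmvk ran from 532 to 694 over the 6 arrays. Acat2, an acetyl-CoA acetyltransferase, had no probe set naming it alone and was not measured here.

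The sterol steps, from squalene synthase to the last reductases, showed small differences in all 11 genes. Log2 fold changes ran from -0.22 to 0.33 in 16 dpc ventral over virgin ventral cells (median 0.02, 6 genes higher and 5 lower by mean) and from -0.12 to 0.34 over 16 dpc dorsal cells (median 0.03, again 6 and 5), and 0 of 11 passed the limma test or an unadjusted p under 0.05 in either. Sqle, the squalene epoxidase that is a rate-limiting enzyme of the route, gave 1280 and 1474 in virgin ventral, 1468 and 964 in 16 dpc dorsal, and 1340 and 1032 in 16 dpc ventral cells. Its groups overlapped, with the lowest 2 signals on the 16 dpc replicate 2 arrays. Cyp51, the lanosterol demethylase, stayed between 958 and 1138 over the 6 arrays, and Fdft1, squalene synthase, between 2481 and 2830. Hsd17b7, a ketosteroid reductase of the route, gave 922 and 1087 in virgin ventral, 1099 and 939 in 16 dpc dorsal, and 1262 and 1250 in 16 dpc ventral cells. Both 16 dpc ventral arrays were above the other 4 for Hsd17b7, and the same held for Nsdhl, a sterol dehydrogenase, with 928 and 869 in 16 dpc ventral cells against 624 to 838 elsewhere. Neither passed the test, and a further probe set of Hsd17b7 (539, 528, 359, 136, 541 and 299 in the same order of arrays) showed no such order. Dhcr7, the last reductase, gave 1443 and 1255 in virgin ventral, 1157 and 880 in 16 dpc dorsal, and 1181 and 1374 in 16 dpc ventral cells, and was lowest on the 2 dorsal arrays. Sc5d, a sterol desaturase, was spread most by its virgin arrays, at 630 and 1143, against 589 to 771 on the other 4. Lss ran from 399 to 503, Tm7sf2 from 263 to 343, Msmo1 from 624 to 1159 and Ebp from 1865 to 2346.

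The regulators showed no difference past the test, and on the probe sets used the signals of each SREBP gene lay close together over all 6 arrays. Srebf1, which encodes SREBP1, gave 4339 and 3784 in virgin ventral, 4467 and 4443 in 16 dpc dorsal, and 4568 and 3513 in 16 dpc ventral cells. Srebf2, which encodes SREBP2, gave 986 and 915, then 807 and 891, then 916 and 937 in the same groups. The 16 dpc ventral arrays of Srebf1 held both its highest and its lowest signal, and those of Srebf2 lay above the dorsal arrays and inside the virgin range. A further probe set of Srebf2 gave 386 and 469 in virgin ventral, 311 and 317 in 16 dpc dorsal, and 325 and 331 in 16 dpc ventral cells. On that set both virgin arrays lay above all arrays of pregnant mice. SREBPs are activated by cleavage of the protein, which an array does not measure. Insig1, both a brake on SREBP and one of its targets, gave 414 and 358 in virgin ventral, 437 and 390 in 16 dpc dorsal, and 459 and 443 in 16 dpc ventral cells. Insig2 ran from 1728 to 2318. Stard4, a cytosolic carrier of cholesterol, gave 572 and 937 in virgin ventral, 452 and 531 in 16 dpc dorsal, and 536 and 590 in 16 dpc ventral cells, with the second virgin array standing apart. For the 5 regulators the median log2 fold change was -0.04 against virgin ventral cells and 0.13 against 16 dpc dorsal cells.

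The 4 fatty acid synthesis genes showed no difference past the test either, with log2 fold changes from -0.10 to 0.31 against virgin ventral cells and from -0.15 to 0.13 against 16 dpc dorsal cells. Fasn, the fatty acid synthase, gave 2752 and 2636 in virgin ventral, 2629 and 2879 in 16 dpc dorsal, and 2993 and 2308 in 16 dpc ventral cells. The 16 dpc ventral arrays held both its highest and its lowest signal. Acaca, the carboxylase that makes malonyl-CoA, gave 739 and 738 in virgin ventral, 702 and 991 in 16 dpc dorsal, and 844 and 989 in 16 dpc ventral cells. Acly, which releases acetyl-CoA from citrate, ran from 6402 to 7946, and Acss2, which makes acetyl-CoA from acetate, from 581 to 949, with the groups overlapping in 16 dpc ventral over virgin ventral cells for both.

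Elongases and desaturases had the largest median size of log2 fold change of the 5 roles, with both signs among them. It was 0.45 over virgin ventral and 0.41 against 16 dpc dorsal cells, beside 0.21 and 0.15 over all genes. The 0.45 was that of Elovl6, whose log2 fold change was 0.05 between the replicate 1 arrays and -0.94 between the replicate 2 arrays. Scd2 adds the first double bond to saturated fatty acids, as does its paralog Scd1, the main form of sebaceous glands. Scd2 gave signals of 1015 and 1238 in virgin ventral, 632 and 505 in 16 dpc dorsal, and 409 and 355 in 16 dpc ventral cells, or 1127 ± 158, 568 ± 89.5 and 382 ± 37.9 (SD, n = 2 each). The 3 groups did not overlap, with dorsal cells between the 2 ventral groups, an order that 2.16% of all genes showed. Scd2 fell in 16 dpc ventral over virgin ventral cells by a log2 fold change of -1.56 (SE 0.21, 95% interval -2.03 to -1.09, limma adjusted p = 0.0356), which leaves 0.340 of the virgin signal. The change was -1.31 between the replicate 1 arrays and -1.80 between the replicate 2 arrays, same-numbered arrays sharing a prefix in the file headers. Over 16 dpc dorsal cells the log2 fold change was -0.57 (95% interval -1.04 to -0.10, limma adjusted p = 0.815), and in 16 dpc dorsal over virgin ventral cells it was -0.99 (-1.46 to -0.52, limma adjusted p = 0.274), so neither passed the threshold. With fewer arrays the fall kept its direction and lost the threshold: leaving out 1 of the 4 ventral arrays, with the lone array assumed to vary like the other groups, gave limma adjusted p = 0.0940 (without 16 dpc ventral replicate 1), 0.185 (without replicate 2), 0.0933 (without virgin ventral replicate 1) and 0.233 (without replicate 2), at log2 fold changes from -1.70 to -1.41. The other 2 probe sets of Scd2 were near background, one called absent on all 6 arrays and one present on 2, and averaging all 3 gave -1.34 (limma adjusted p = 0.418). Without a trend of variance on level the limma adjusted p was 0.142.

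Scd1 gave 11549 and 11298 in virgin ventral, 11198 and 6579 in 16 dpc dorsal, and 12121 and 8620 in 16 dpc ventral cells. Its lowest signals were on the 2 replicate 2 arrays of pregnant mice, while its first 16 dpc ventral array was the highest of all, unlike Scd2. Elovl5, which elongates polyunsaturated fatty acids, gave 1434 and 1227 in virgin ventral, 1329 and 1538 in 16 dpc dorsal, and 1919 and 1889 in 16 dpc ventral cells, or 1331 ± 146, 1434 ± 147 and 1904 ± 21.3 (SD, n = 2 each). Both 16 dpc ventral arrays were above the other 4. The log2 fold change of Elovl5 was 0.52 over virgin ventral (SE 0.16, 95% interval 0.15 to 0.89, limma adjusted p = 0.272) and 0.41 over 16 dpc dorsal cells (0.04 to 0.78, limma adjusted p = 0.894), so the difference did not pass the threshold. Its further probe set gave the same order, with 1790 and 1793 in 16 dpc ventral cells against 1019 to 1486 on the other arrays. Elovl6, which elongates palmitate, gave 2793 and 3376 in virgin ventral, 2284 and 1240 in 16 dpc dorsal, and 2888 and 1753 in 16 dpc ventral cells, with the replicates of the pregnant groups far apart. The desaturase Fads1 ran from 121 to 212 with overlapping groups. The probe set that stood for Fads2, the desaturase acting before Fads1 on polyunsaturated fatty acids, was called absent on all 6 arrays, so Fads2 entered no test, and a further one was called present on 2.

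**Figure D3:**
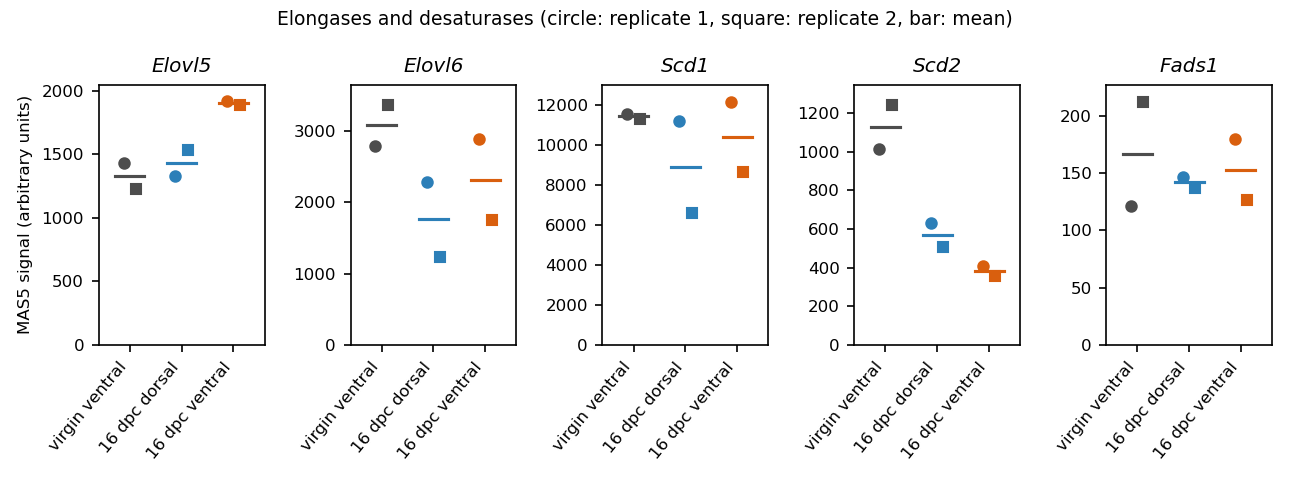
MAS5 signal in arbitrary units of the 5 detected elongase and desaturase genes on each array (circles replicate 1, squares replicate 2, bars group means), each panel on its own axis from 0. Scd2 steps down from virgin ventral through 16 dpc dorsal to 16 dpc ventral cells without overlap, Elovl5 is highest on both 16 dpc ventral arrays, and Elovl6 and Scd1 are split by replicate number in the 16 dpc groups.

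Set side by side, the 17 measured genes of the sterol branch (mevalonate and sterol steps) had a median log2 fold change of 0.02 against virgin ventral cells and of -0.01 against 16 dpc dorsal cells, and the 9 of the fatty acid branch (synthesis, elongation and desaturation) had -0.09 and 0.09. Over virgin ventral cells the sterol branch ran from -0.33 for Mvk to 0.33 for Hsd17b7. The fatty acid branch ran from -1.56 for Scd2 to 0.52 for Elovl5. The difference between the branches was not tested.

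RNA integrity and replicate number moved with several of these signals. The ratio of 3′ to 5′ signal of the actin control, which rises as RNA degrades, was 2.46 and 2.15 on the virgin ventral arrays, 2.04 and 4.47 on the 16 dpc dorsal arrays, and 1.78 and 3.90 on the 16 dpc ventral arrays. The median of log2 replicate 2 minus replicate 1 over the 31 genes was 0.04 for the virgin ventral arrays, -0.20 for the 16 dpc dorsal arrays and -0.14 for the 16 dpc ventral arrays, beside -0.00, 0.08 and 0.09 over all genes. Fdps was the one of the 31 genes that differed over 2-fold between replicates, in each 16 dpc group (3.23%). Among all genes, 5.34% did so for the 16 dpc dorsal replicates, while the 16 dpc ventral replicates gave 4.09%. This count thus does not set the 31 genes apart. Some further probe sets were more strongly lower on the 16 dpc replicate 2 arrays. One of Stard4 gave 702, 868, 551, 188, 680 and 238, in the order virgin ventral, 16 dpc dorsal, 16 dpc ventral. One of Elovl6 gave 2101, 1875, 1527, 496, 2270 and 629 in that order. With the actin ratio as a covariate, 1 of the 31 genes, Scd2, passed in 16 dpc ventral over virgin ventral cells (limma adjusted p = 0.00846). In the other 2 comparisons 0 of the 31 passed. Over all genes 140, 30 and 49 passed in the 3 comparisons of that fit, against 22, 9 and 0 without the covariate. The part of RNA integrity in the single signals above was not tested. Without both 16 dpc replicate 2 arrays the log2 fold change of Scd2 was -1.46, in a fit whose spread comes from the virgin pair alone. Over all 21 genes with further probe sets present on at least 2 arrays, 21 of the 31 further sets shared the sign of the set used in 16 dpc ventral over virgin ventral cells. Over 16 dpc dorsal cells 21 of 31 did so. Some of these sets were near background, such as one of Acly at 2.73 to 35.4. The share was not computed over all genes, so it does not say how far the sets agree beyond chance. Probe sets whose names end in x_at, among them those used for Hmgcs1, Fdft1, Hsd17b7, Acly and Elovl5, may also capture related transcripts.

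**Figure D4:**
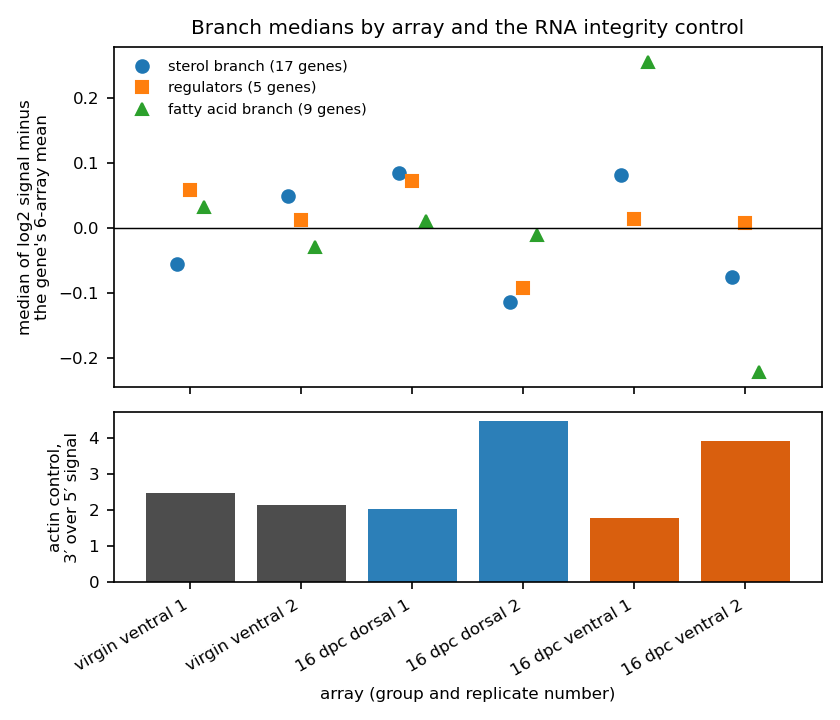
Upper panel, for each array the median over genes of the log2 signal minus the gene's 6-array mean, for the sterol branch, the regulators and the fatty acid branch. Lower panel, the 3′ over 5′ signal ratio of the actin control, which is at most 2.46 on 4 arrays and 4.47 and 3.90 on the replicate 2 arrays of 16 dpc dorsal and ventral cells. The sterol branch medians on those 2 arrays are -0.11 and -0.08, those of the regulators -0.09 and 0.008, and those of the fatty acid branch -0.01 and -0.22.

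Neighbouring lipid pathways showed no gene past the threshold. Of 80 detected genes in 5 lists, 0 rose and 0 fell in any of the 3 comparisons by limma. Few genes passed at all: 0.136% of all genes rose and 0.0637% fell over virgin ventral cells, and 0.0455% and 0.0364% over 16 dpc dorsal cells. At an unadjusted p under 0.05, 3 of the 80 were higher and 2 lower over virgin ventral cells (all genes 11.6% in either direction). Over 16 dpc dorsal cells 2 were higher and 1 lower (all genes 5.09%). In the list of SREBP processing, sterol transport and LXR genes (14 detected of 17), the smallest p belonged to Mylip over virgin ventral cells (log2 fold change -0.43, limma adjusted p = 0.470), a ligase that degrades lipoprotein receptors, and to Scarb1 over 16 dpc dorsal cells (1.51, adjusted p = 0.835), the HDL receptor. Among genes of acetyl-CoA and NADPH supply (12 of 16) they were Me1, malic enzyme, over virgin ventral cells (-0.80, limma adjusted p = 0.442) and Acacb, an acetyl-CoA carboxylase, over 16 dpc dorsal cells (0.60, adjusted p = 0.999). Epidermal ceramide and very long chain fatty acid genes (22 of 24) were led by Cyp4f39, which hydroxylates fatty acids for acylceramide, at -0.71 over virgin ventral cells (limma adjusted p = 0.256), and Cers2, a ceramide synthase, at -0.40 over 16 dpc dorsal cells (adjusted p = 0.9999). Glycerolipid genes (15 of 15) were led by Agpat4, an acyltransferase, at -0.91 against virgin ventral cells and -0.72 against 16 dpc dorsal cells (limma adjusted p = 0.180 and 0.601), with the lipase Mgll at 0.59 over virgin ventral cells (adjusted p = 0.247). Fatty acid oxidation, the pathway opposite to synthesis, had 12 of 17 detected genes with a higher mean than in virgin ventral cells (median 0.24) and 13 of 17 than in 16 dpc dorsal cells (median 0.19). Its smallest p over virgin ventral cells belonged to Decr1, which handles double bonds in oxidation, at 0.83 and Hadhb, a subunit of the trifunctional protein, at 0.50 (limma adjusted p = 0.259 for each). Of the 5 genes with a lower mean there, Ppara fell most, at -0.94 (limma adjusted p = 0.501), the largest change of the list. Over 16 dpc dorsal cells the smallest p was that of Acadl at 0.50 (limma adjusted p = 0.965). Over all 10993 genes, 5825 and 4756 had a higher mean in these comparisons. The median of the 17 over virgin ventral cells was 0.35 between the replicate 1 arrays and -0.05 between the replicate 2 arrays. At an unadjusted p under 0.05, 2 of the 17 were higher over virgin ventral cells (all genes 11.6% in either direction) and 1 over 16 dpc dorsal cells (5.09%) by limma.

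Markers of other lipid-making cells were checked beside these values, since fewer cells of a type and less RNA per cell cannot be told apart in bulk RNA. All 10 basal keratinocyte markers were detected. Of 9 sebaceous gland markers on the array 5 were detected, with summed signals of all 9 of 11384 and 19506 in virgin ventral, 16777 and 8354 in 16 dpc dorsal, and 14910 and 4496 in 16 dpc ventral cells, and 2 of the 9, Scd3 and Plin5, were absent on all 6 arrays. The lowest sums were on the 16 dpc replicate 2 arrays, as for Scd1 and Elovl6, and the part of sebaceous cells in those signals was not tested. Krt79 made up most of each sum, at 9363 and 16387, 12513 and 5978, then 11015 and 2741 in the same groups. Elovl3 (624) and Far2 (829) were highest on the first 16 dpc ventral array. Far2 (160) and Cidea (82.4) were lowest on the first virgin ventral array. Elovl3 (149) was lowest on the second 16 dpc dorsal array, and Acsbg1 (989), like Krt79, on the second 16 dpc ventral array. The part of sebaceous cells in the Scd2 result was not tested either. Of 8 adipocyte markers on the array 6 were absent on all 6 arrays, among them Adipoq, Lep, Retn and Cidec, and summed signals were 320 and 525 in virgin ventral, 362 and 220 in 16 dpc dorsal, then 451 and 314 in 16 dpc ventral cells. Of 14 mammary markers 9 were detected, and their sums were 1937 and 2317, 2321 and 2212, and 15508 and 3526, with the milk protein gene Csn2 at 6185 on the first 16 dpc ventral array. Within that list the luminal keratin Krt8 was also higher on both virgin arrays, at 220 and 474 in virgin ventral, 47.6 and 34.3 in 16 dpc dorsal, and 104 and 10.0 in 16 dpc ventral cells, and Krt18 and Krt19 showed the same, while their part in the Scd2 result was not tested.

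The remaining marker lists gave the following sums over the genes on the array. Differentiated keratinocyte markers (10 of 10 detected) summed to 137790 and 139698 in virgin ventral, 117130 and 137053 in 16 dpc dorsal, then 113727 and 123513 in 16 dpc ventral cells. Both virgin arrays were above the other 4, though the first exceeded the second dorsal array only barely. On that dorsal array Krt10 (50772) and Krt1 (25274) had their highest signals. By mean, 9 of the 10 were lower in 16 dpc ventral than in virgin ventral cells, as were 5168 of all 10993 genes (median log2 fold change -0.45, all genes 0.02). Among them were the barrier proteins Lor at -0.79 and Flg at -1.43. By limma 0 of the 10 passed the threshold, where 0.0637% of all genes fell. At an unadjusted p under 0.05, 3 were lower (all genes 11.6% in either direction). The part of these cells in the Scd2 result was not tested. Proliferation markers (7 of 7) summed to 11206 and 17556 in virgin ventral, 12190 and 18113 in 16 dpc dorsal, then 19863 and 28362 in 16 dpc ventral cells, and both 16 dpc ventral arrays were above the other 4, as for Elovl5, which was not tested against these markers. Langerhans and antigen-presenting cell markers (8 of 8) summed to 4671 and 3265 in virgin ventral cells against 6565 to 9117 on the arrays of pregnant mice. Dendritic epidermal T cell markers (3 of 8) summed to 741 and 739 in virgin ventral cells against 1870 to 4666. Thy1 carried most of that difference (402 and 457 in virgin ventral, 1347 and 2235 in 16 dpc dorsal, then 3086 and 4216 in 16 dpc ventral cells), whereas Cd3g ran from 80.9 to 188 and Cd3d, Cd3e and Cd247 were absent on all 6 arrays. The part of immune cells in these results was not tested. Hair follicle markers (7 of 10) summed to 939 to 3277, fibroblast markers (3 of 8) to 387 to 1025, melanocyte markers (2 of 6) to 659 to 814 and endothelial markers (0 of 5) to 116 to 248 over the 6 arrays.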

How the data were processed

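RNA of sorted epidermal basal cells was hybridised by the authors to 6 Affymetrix mouse arrays of 45101 probe sets. The deposited files give a signal intensity per probe set in linear units, and a detection call, made per the labels with Affymetrix Expression Console version 1; values behave as MAS5 output scaled to a common mean, which cannot show a change of total RNA. Arrays called 47.2% to 53.3% of probe sets present, and 2 arrays per group limit the precision. Groups came from the labels. The day of gestation in the file headers differs slightly from the labelled day, which was used.

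The analysis used log2 of the signal, with 1 as the lowest signal. Symbols came from the platform annotation (34945 probe sets name 1 gene, 932 several, 9224 none; 34741 matched RefSeq, GRCm38.p6). The probe set of highest mean log2 signal stood for a gene (18193 genes). Genes needed a present call on both arrays of some group, and the 10993 that had one were tested with limma 3.58.1 in R 4.3.3 (lmFit, and eBayes with a trend; 3 residual degrees of freedom, prior 5.79; two-sided). Folds are differences of mean log2 signals. On simulated data for 16 dpc ventral over virgin ventral cells the script recovered 32% of 100 genes changed 2-fold and 75% of 100 changed by 2 log2 units, over 10993 genes. The genes and lists were chosen with earlier results of these data known. Named with fold change and test were members with adjusted p at or under 0.05, unadjusted p under 0.05 or a log2 fold change of size 1 or more in either 16 dpc ventral comparison, and up to 2 genes of smallest p per neighbouring list. Lists were basal and differentiated keratinocyte, sebaceous gland, adipocyte, mammary, hair follicle, dendritic epidermal T cell, Langerhans, fibroblast, melanocyte, endothelium and proliferation markers, with 5 neighbouring lipid lists. The 18 alternatives were quantile normalization, median centring of each array, a floor of 16, no detection filter, presence on all 6 arrays, the mean of all probe sets, shared probe sets left out, no variance trend, 2 groups only, a replicate block, the actin ratio as covariate, both 16 dpc replicate 2 arrays left out, and each of the 6 arrays left out in turn.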

Additional observations from a re-analysis of the deposited data

How the results depend on the processing

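Scd2 stayed lower in 16 dpc ventral than in virgin ventral cells under all 18 alternatives, with log2 fold changes from -1.70 to -1.34, and was past the threshold in 12 of them. It was lost without a variance trend (limma adjusted p = 0.142), when all probe sets of a gene were averaged (0.418) and with each of the 4 arrays of the comparison left out in turn, so the number of members past the threshold was then 0. The cause was not tested. Elovl5 passed under 0 of 18 (0.41 to 0.63). In 16 dpc dorsal over virgin ventral cells its log2 fold change of 0.11 became -0.0043 without virgin ventral replicate 2, and 0.22 without replicate 1.

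The number of genes past the threshold over virgin ventral cells, 22, became 5 with the mean of all probe sets, 11 with shared probe sets left out, 0 without a variance trend, 46 with 2 groups only, 140 with the actin ratio as covariate and 115 with both 16 dpc replicate 2 arrays left out, where the spread comes from the virgin pair alone. Over 16 dpc dorsal cells, 9 became 0 with the mean of all probe sets, 1 without a variance trend, 0 with 2 groups only, 30 with the actin ratio and 24 without those arrays. In 16 dpc dorsal over virgin ventral cells, 0 became 7 with quantile normalization, 5 with presence on all 6 arrays, 1 with shared probe sets left out, 12 with 2 groups only, 49 with the actin ratio and 62 without those arrays. Leaving out 1 array gave 1 to 59, 0 to 7 and 0 to 33 in the 3 comparisons, and 0 to 1, 0 and 0 members.

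Same-numbered arrays did not deviate together for virgin ventral with either 16 dpc group (correlations 0.03 and 0.01). Between the 16 dpc groups they did so in part (0.45). The labels do not say whether same-numbered 16 dpc dorsal and ventral arrays came from the same mice. The numbers were not taken as pairs in the fit above, and a pairing of the 16 dpc groups alone was not fitted. With the replicate block 86, 16 and 11 genes passed, Scd2 remained the one member (limma adjusted p = 0.0239), and no neighbouring lipid gene passed.

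List medians of log2 fold change moved by more than the replicate SD of 0.24 for elongation and desaturation, from -0.16 to 0.086 over virgin ventral cells and from -0.41 to -0.13 in 16 dpc dorsal over virgin ventral cells without both 16 dpc replicate 2 arrays. Leaving out 1 array gave -0.49 to 0.086, -0.021 to 0.42 and -0.80 to -0.13 in the 3 comparisons, and -0.37 to -0.067 for the mevalonate steps over 16 dpc dorsal cells.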
